A study of Mus musculus with 16 samples.

Results

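The histone genes of mouse brown adipocytes are described here in 16 RNA-seq libraries. Members were the rows whose symbol begins with the cluster names Hist1h to Hist4h or with the gene family names H1f, H2ac, H2bc, H2bu, H3c, H4c or H4f followed by a digit, which gave 75 of the 54347 genes in the table. They comprised 12 H1, 19 H2A, 19 H2B, 12 H3 and 13 H4 genes, of which 59 had enough counts to be tested. The cells were wt1-SAM, a line of immortalized brown preadipocytes with a stable CRISPRa SAM cassette. This system uses a Cas9 that cannot cut DNA, together with activators recruited by the guide RNA, to switch a chosen gene on. All libraries therefore came from 1 line, and the activators were present in the controls too. The cells were differentiated with rosiglitazone, T3, dexamethasone, insulin, indomethacin and IBMX, reverse transfected with plasmid (250 ng) on day 4 and harvested on day 7. Empty vector cells received the sgRNA vector without a guide, and sgRNA cells received the pSgRNA-MS2-2+7 plasmids against the long noncoding RNA gene *Gm15551*. Cells of each kind were either left unstimulated or stimulated for 24 h with the β-adrenergic agonist isoproterenol at 1 µM, which made 4 groups of 4 libraries, numbered replicate 3, 4, 5 and 6 in every group. Nothing in the labels says whether replicate numbers are separate cultures, so p-values measure the spread between these libraries only.

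Histones package DNA. A nucleosome core is built from the histones H2A, H2B, H3 and H4, and H1 is the linker histone that binds DNA between cores. Most histone genes lie in clusters, are transcribed in S phase to match DNA synthesis and are known as replication-dependent. Their mRNAs end in a short hairpin, bound by the stem-loop binding protein SLBP, in place of a poly(A) tail. A smaller number of histone genes, among them H1f0, which encodes the linker histone typical of differentiated cells, give polyadenylated mRNA outside S phase. Libraries made from poly(A)-selected RNA are therefore poor in the first kind, and the ribosomal RNA left in such a library is a measure of how far RNA without a tail was removed.

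The hairpin sequence was looked for first, because it is the feature that separates these mRNAs from others in a poly(A)-selected library. A perfect stem of 6 base pairs beginning with GG around a loop of 4 bases was present in an annotated transcript of 45 of the 75 members (60%), against 5.79% of 58797 protein-coding transcripts of any gene. In 23 members it lay near the annotated end, and in 22 it was followed by a longer 3′ part. Of the 30 members with no such match, 15 have a longest annotated transcript of under 420 bases, so that the 3′ end may lie outside the model. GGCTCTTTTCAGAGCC was the most frequent form, in 25 members of types H1, H2A, H2B and H3, and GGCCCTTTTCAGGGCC was held by 7 H4 genes. The sites below, read 5′ to 3′ from GENCODE M21 transcripts of the GRCm38 build with both arms of the stem in capitals, belong to the genes on which the comparisons turn or show how the hairpin varies.
H2bc7: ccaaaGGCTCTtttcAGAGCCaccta
H3c15: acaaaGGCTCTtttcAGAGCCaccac
H3c14: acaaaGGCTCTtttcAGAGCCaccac
H1f2: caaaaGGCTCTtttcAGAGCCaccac
H3c6: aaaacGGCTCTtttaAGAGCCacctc
H3c8: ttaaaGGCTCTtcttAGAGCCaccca
H4c4: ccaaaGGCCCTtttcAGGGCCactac
H4c14: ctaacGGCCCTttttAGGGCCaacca
H4c2: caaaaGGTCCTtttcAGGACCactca
The stems of the H1, H2B and H3 genes shown are the same, with another loop in H3c6 and H3c8, and the H4 genes differ from them within the stem. In H2bc7 the annotated transcript ends 29 bases after the hairpin and in H4c2 28 bases after it. The models of H3c15, H4c4, H1f2, H3c14 and H4c14 run on for 377, 770, 840, 1162 and 1257 bases. The polyadenylation signal AATAAA was found in the last 50 bases of 18 members (24%), H1f0, H1f2, H2bc21, H3c14 and H4c14 among them, against 40.5% of protein-coding transcripts.

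The members lie close together and resemble one another. On chromosome 13, 56 of them fall between positions 21715763 and 23934851, and a further 10 lie on chromosome 3 between 96219865 and 96270132. For a median member 50.5% of all stretches of 50 bases occur in no other gene, and 36 members are below 50%. H2ac18, H2ac19, H2bc18, H3c13 and H3c14 have no such stretch. The authors' counting divides reads between transcripts that match equally well, so the values of these 36 genes are less certain than those of H1f0 (94.3%), H4c4 (89.8%) or H4c14 (99%).

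Total counts ranged from 9053521 to 16546187 per library. A single gene annotated as rRNA, CT010467.1 at chr17:39846353-39848827 on the minus strand, took 11.7% to 51.8% of them. The share was over 40% in 3 libraries, namely unstimulated empty vector replicate 5 (47.3%) and stimulated empty vector replicates 3 (41.6%) and 5 (51.8%). Within the same treatment and replicate number it was lower in the sgRNA library in 8 of 8 pairs, and it was higher with isoproterenol in 6 of 8. *Gm15551* itself had 0 to 18 counts in empty vector libraries and 13 to 56 in sgRNA libraries and was higher in the sgRNA library of all 8 pairs (log2 fold change 2.37, adjusted p = 0.0989, and 2.41 ± 0.28 (SE), adjusted p = 0.00055, with the replicate number as a block). Adipocyte markers were high (Fabp4 at a mean of 14500 CPM, the count scaled to the TMM-normalised library total), although Ucp1, which encodes the thermogenic protein that defines brown adipocytes, had 0 to 15.5 CPM, and of 3 skeletal muscle markers Myod1 had 0 counts in 16 of 16 libraries, Myog 0 in 15 and Acta1 0.935 to 3.82 CPM.

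Histone genes were a small part of the RNA, at 0.0625% to 0.177% of all counts outside the rRNA gene. H1f0 (chr15:79028450-79030504, plus strand) alone made up 30% of all histone counts. Summed over all members, histones reached 439 to 1430 CPM per library. The H1 sum, most of which is H1f0, was nearly level, from 264 ± 40.1 CPM in unstimulated sgRNA cells to 277 ± 50.7 in unstimulated empty vector cells (SD, n = 4 throughout). The other H1 genes together had 106 ± 64.8 CPM in unstimulated and 109 ± 35.3 in stimulated empty vector cells, and 85.2 ± 19.2 and 76.3 ± 21.7 in the sgRNA groups. H2A stood at 106 ± 63.5 CPM in unstimulated and 84.8 ± 18.7 in stimulated empty vector cells, and at 86 ± 18.5 and 76.7 ± 6.67 in the sgRNA groups. In the same order of groups H2B stood at 126 ± 75, 113 ± 42.6, 98.3 ± 19.3 and 85.5 ± 26.8 CPM. H3 and H4 differed most, with the highest means in both empty vector groups. H3 measured 136 ± 136 and 131 ± 66.1 CPM in unstimulated and stimulated empty vector cells but 62.7 ± 11.3 and 68.6 ± 30.8 in sgRNA cells. H4 measured 130 ± 146 and 118 ± 60.2 CPM against 54.6 ± 12.4 and 58.8 ± 22.7. The unstimulated empty vector means rested on replicate 5. Without that library they were 70.1 ± 33.1 CPM for H3 and 57.2 ± 20.8 for H4 (SD, n = 3), beside the sgRNA means. For H3 and H4 the SDs of the empty vector groups were as large as their differences from the sgRNA groups, and for all 5 types the libraries of the groups overlapped. In bulk RNA, fewer cells that make a transcript and less transcript per cell cannot be told apart.

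**Figure D1:**
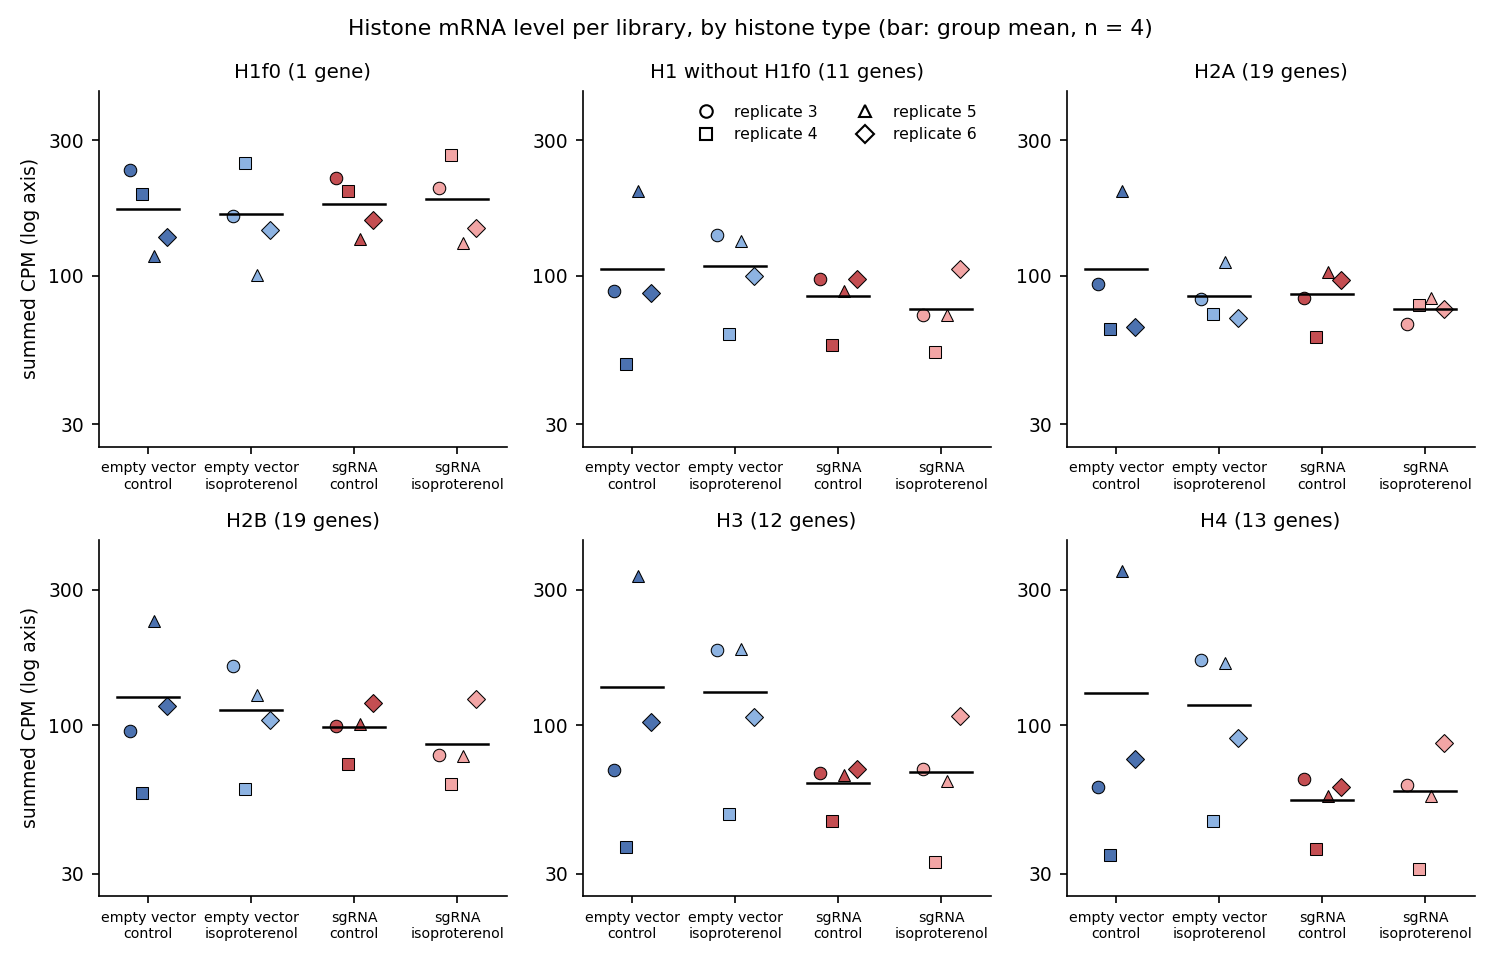
Summed level of H1f0, the other H1 genes, H2A, H2B, H3 and H4 in CPM (vertical axis, log scale) in the 4 groups (horizontal axis), with 1 symbol for each replicate number and the mean of the 4 libraries as a bar. Unstimulated empty vector replicate 5 is the highest H4 library at 348 CPM, whereas the H1f0 libraries stay within 2.65-fold of each other.

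The ratio of the highest to the lowest library was 1.59 for H1, 2.65 for H1f0 alone, 3.25 for H2A, 4 for H2B, 10.2 for H3 and 11.2 for H4. Much of this range came from 1 library. Unstimulated empty vector replicate 5 had 348 CPM of H4, 2.06-fold above the next library, and 336 CPM of H3, 1.82-fold above the next. Against the unstimulated sgRNA library of the same number it was higher by 6.16-fold for H4, 5.02-fold for H3, 2.28-fold for H2B and 1.93-fold for H2A, whereas H1f0 was at 118 CPM, 0.875 times that library.

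Levels differed widely between the genes of a type. Per kilobase of exon, a scale on which genes of different length can be compared, H1f0 averaged 85.4 CPM and H1f2 27.3. Among H2A genes H2ac24, an ordinary core H2A gene, had 73.4 CPM per kilobase, with a unique share of only 6.9%. H2bc4 led the H2B genes by CPM, at 36.1 per kilobase. H3c15 and H3c11 had 17.5 and 34.8 CPM per kilobase, and the H4 genes H4c8 and H4c4 had 24.5 and 8.76. In CPM over all libraries, which does not compare genes of different length, other members among the 4 highest of their type were H1f4 (16.8) and H1f1 (11.4), H2ac12 (10.9), H2ac19 (9.58) and H2ac13 (4.64), H2bc8 (8.62), H2bc21 (8.45) and H2bc12 (8.38), H3c3 (9.78) and H3c13 (8.6), and H4c9 (10.8) and H4c1 (10.4). The members at the other end were the 16 not tested, of which the highest had 84 counts over all 16 libraries and H1f11-ps had none. A count of 0 allows up to 0.166 to 0.39 CPM, depending on the library. The lowest member tested, H2bc15, had 201 counts in all, and these 2 totals are the values nearest to the count filter on either side.

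Histone levels also differed by replicate number. The H4 sum averaged 88.8, 37.2, 157 and 78.4 CPM over the 4 libraries of replicates 3, 4, 5 and 6, and H3 averaged 97.8, 41.1, 163 and 97. Both were lowest in replicate 4 and highest in replicate 5, where the 3 libraries other than unstimulated empty vector averaged 93 CPM of H4 and 105 of H3. H1f0 was instead highest in replicate 4 and lowest in replicate 5, with 206, 228, 121 and 147 CPM. In a model with group and replicate number, edgeR called 46 of the 59 members for replicate number, a share to be read against 54.7% of all 13150 genes. Without replicate 4 the count was 5 of 60 members, where 46% of all genes were still called. Without unstimulated empty vector replicate 4 it was 29 of 61, with 51.1% of all genes, and for the other libraries and numbers left out it lay between 32 and 51. With the rRNA share as a further term 7 members were called (H1f0, H2ac19, H2bc4, H3c7, H3c8, H3c13 and H4c9), against 45% of all genes.

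The levels were next set beside the rRNA share. Among the 24 pairs of libraries that share a replicate number, the one with more rRNA had more H3 in 21 and more H4 in 20. For H2A and H2B this held in 12 of 24 pairs each, for H1 in 11, for H1f0 in 6 and for the H1 genes other than H1f0 in 16. Comparing the library with most rRNA and the library with least within each number gave H4 ratios of 2.61, 1.48, 2.97 and 1.48 for replicates 3, 4, 5 and 6, and H3 ratios of 2.72, 1.47, 2.91 and 1.52. All 8 ratios were above 1. The library with most rRNA was stimulated empty vector in all 4 numbers and that with least was an sgRNA library in all 4, so in these ratios rRNA share and plasmid cannot be told apart. The H1 genes other than H1f0 gave 1.43, 1.16, 1.83 and 1.02. H2A gave 0.987, 0.932, 1.34 and 0.74, and H2B gave 1.62, 0.967, 1.64 and 0.868, so both types lay on either side of 1. For H1f0 the same 4 ratios were 0.737, 0.939, 0.77 and 0.915, all below 1.

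**Figure D2:**
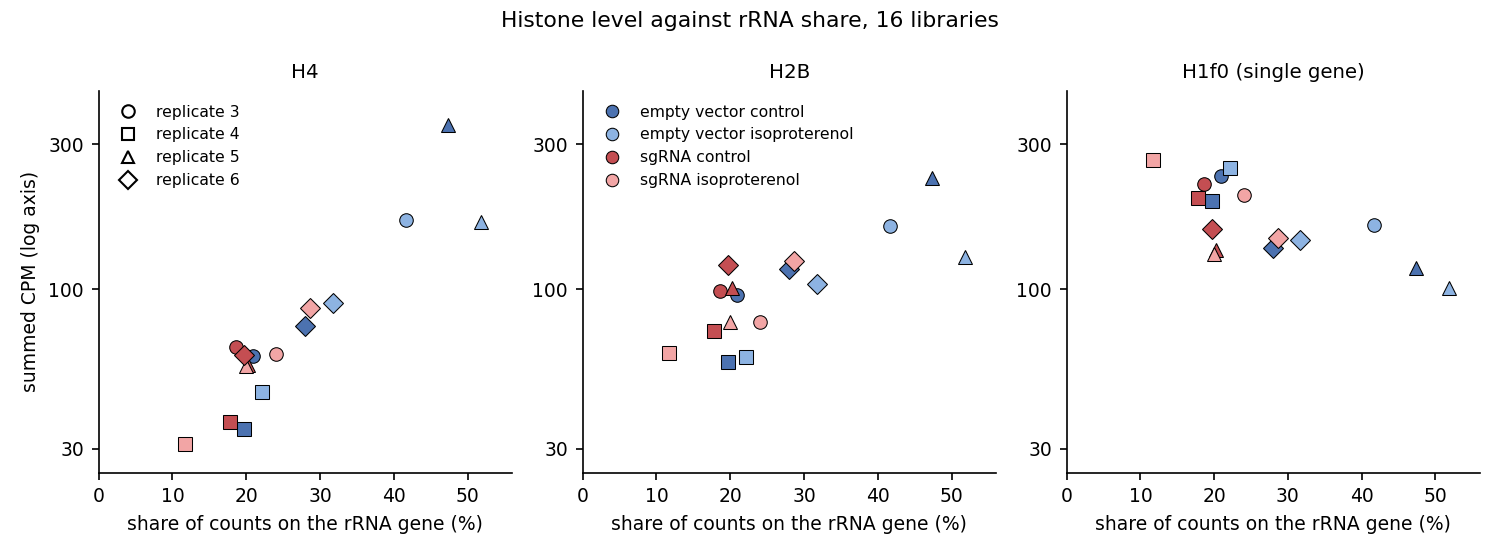
Summed CPM of H4, H2B and H1f0 (vertical axis, log scale) against the percent of counts on the rRNA gene (horizontal axis) in the 16 libraries, with groups by colour and replicate numbers by symbol. The H4 points are highest in the 3 libraries with over 40% rRNA, and those of H1f0 are not.

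H4c4 shows the pattern for a single gene. It encodes the core histone H4, lies at chr13:23581598-23582735 on the plus strand and has a hairpin with a long 3′ part. In empty vector cells it had 5.18, 3.35, 42.2 and 8.2 CPM unstimulated and 23.2, 5.26, 21 and 10 CPM stimulated, in replicates 3, 4, 5 and 6. In sgRNA cells the values were 5.95, 4.18, 4.04 and 4.03 CPM unstimulated and 6.04, 1.98, 4.89 and 10 CPM stimulated. The 3 highest values belong to the 3 libraries with over 40% rRNA, and the groups overlap. H3c15 (chr3:96238108-96239127, minus strand), a gene for the core histone H3, had 11.4, 5.45, 70.4 and 13.6 CPM unstimulated and 24.1, 9.13, 36 and 20.8 CPM stimulated in empty vector cells. Its sgRNA libraries had 11.3, 9.73, 13.5 and 16.2 CPM, and 13.5, 3.85, 9.69 and 17.7 CPM. Here too the 3 libraries richest in rRNA were the 3 highest.

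H1f0 was distributed differently. It had 236, 195, 118 and 137 CPM in unstimulated and 163, 250, 101 and 145 CPM in stimulated empty vector cells, and 222, 199, 135 and 158 CPM and 204, 266, 131 and 148 CPM in the sgRNA groups. Its levels fell into the order of replicate numbers in every group, with 3 and 4 above 5 and 6, and the groups overlapped.

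Single H2B genes differed in how far they followed this pattern. H2bc21, an H2B gene with AATAAA at its end and no exact hairpin, had 10.4, 7.29, 9.35 and 9.03 CPM unstimulated and 8.12, 6.97, 6.11 and 6.81 CPM stimulated in empty vector cells, and 8.95, 8.44, 10.8 and 8.66 CPM and 8.44, 8.83, 7.85 and 9.18 CPM in the sgRNA groups. None of the 3 libraries richest in rRNA was its highest. H2bc13, an H2B gene with a unique share of 17.2%, was far less even, at 0.782, 0.591, 14.4 and 2.8 CPM and 3.87, 0.553, 5.73 and 1.43 CPM in empty vector cells. Its sgRNA libraries had 1.19, 0.76, 2.47 and 3.19 CPM unstimulated and 1.07, 0.679, 1.6 and 2.97 CPM stimulated. The 3 libraries richest in rRNA were again the highest, and the groups overlapped.

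H2ac24 and H1f2 gave no call in the contrasts. H2ac24 ranged from 22.2 CPM in stimulated empty vector replicate 3 to 46.6 in unstimulated sgRNA replicate 5, and H1f2, a linker histone gene, from 26 CPM in replicate 4 to 66.5 CPM in replicate 5 of the unstimulated empty vector cells. With isoproterenol H1f2 was lower in 6 of 8 pairs, with a log2 fold change of −0.23 ± 0.1 in the blocked fit (adjusted p = 0.1146), and H2ac24 was lower in 5 of 8, with −0.3 ± 0.14 (adjusted p = 0.135). Their groups overlapped.

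To put a value on this for each gene, the log2 odds of the rRNA share was added to the model with group and replicate number. The coefficient, called the slope here, is the log2 change in a gene's level for each doubling of those odds. Slopes were positive in 53 of 59 members, with a median of 1, beside a median of −0.0051 over all 13149 genes other than the rRNA gene. edgeR called 30 members, all with a positive slope, where 0.586% of all genes were called and 0.388% with a positive slope. Of the 51 genes called with a positive slope, 30 were histone genes. By type the calls were 9 of 12 H3, 8 of 12 H4, 5 of 15 H2B, 4 of 13 H2A and 4 of 7 H1 genes, with median slopes of 1.25, 1.18, 1, 0.8 and 0.72.

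H4c4 had a slope of 1.61 ± 0.2 (SE, adjusted p = 0.0009137). Those of H4c14, another H4 gene, and H3c11 were 1.29 ± 0.16 and 1.2 ± 0.14, both with an adjusted p of 0.000854. H3c15 had 1.25 ± 0.18 (adjusted p = 0.003971), and the H2B genes H2bc8, H2bc13 and H2bc7 had 1 ± 0.13, 1.65 ± 0.3 and 1.09 ± 0.2 (adjusted p = 0.001838, 0.01994 and 0.01712). The linker histone gene H1f1 was at 1.05. Members that were not called included several of the most abundant ones. H1f0 had −0.27, H2ac24 −0.36, H2ac12 −0.25, H1f2 0.17, H2bc4 0.14, H2bc21 −0.06 and H3c14 0.02. H3c14 and H3c15 share the 26 bases printed above and lie in the same cluster on chromosome 3, and their slopes were 0.02 and 1.25. H3c14 has a unique share of 0% and H3c15 of 36.5%. The value of H3c14 therefore depends on how reads were divided between matching genes.

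**Figure D3:**
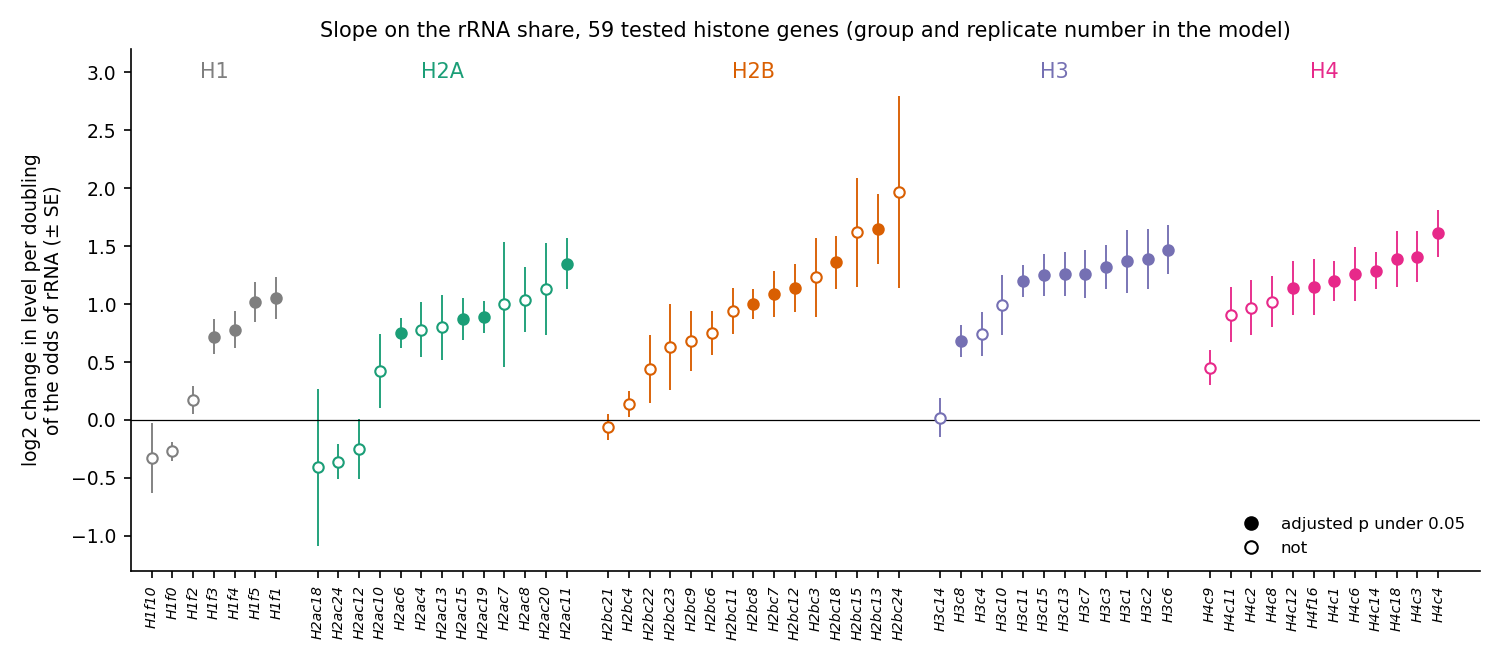
Slope of each of the 59 tested histone genes (vertical axis, log2 change in level per doubling of the odds of rRNA, with the SE as a line), ordered within each type along the horizontal axis, with filled points for the genes called. H3 and H4 genes have medians of 1.25 and 1.18, and H1f0 lies at −0.27.

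The annotated 3′ end gave a less regular picture. Slopes were called in 10 of 20 tested members with a hairpin near the end, 12 of 20 with a hairpin and a longer 3′ part and 8 of 19 with no exact match, and the medians were 1.06, 0.96 and 0.99. Of the members with AATAAA in the last 50 bases 3 of 14 were called (median 0.69), and of those without it 27 of 45 (median 1.02). By uniqueness of sequence the calls were 15 of 29 members with 50% or more unique stretches and 15 of 30 members with fewer. On chromosome 13, 24 of 47 were called, on chromosome 3, 5 of 9.

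The slope calls rested on few libraries. Without the 3 libraries of over 40% rRNA, 0 members and 0.108% of all genes were called and the median slope was 0.36. The number called was 1 without replicate 5 (0.129% of all genes), 7 without replicate 6 (0.192%) and 9 without replicate 3 (0.225%). Leaving out a single library gave 6 members without unstimulated empty vector replicate 5, 11 without replicate 3 of that group, 19 without stimulated empty vector replicate 6, 17 without unstimulated sgRNA replicate 5, and 11 and 12 without stimulated sgRNA replicates 5 and 6, while the share of all genes called in these fits lay between 0.134% and 0.358%. The median slope stayed between 0.68 and 1.11 when each of the 16 libraries was left out.

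The sgRNA comparison asked whether guides against *Gm15551* changed histone levels. Averaged over both treatments, 52 of 59 members had a lower estimate in sgRNA cells, with a median log2 fold change of −0.91 beside −0.009 over all genes, but edgeR called 0 members, as it did 0% of all 13150 genes. At an unadjusted p under 0.05 there were 32 members among 437 genes (3.32% of all), and DESeq2 called 0 members. The medians were −1.28 for H4, −1.12 for H3, −0.82 for H2B, −0.64 for H2A and −0.53 for H1. H4c4 had −1.5, H4c2 −1.36, H4c14 −1.28 and H3c15 −0.98, whereas H1f0 and H2bc4 both had 0.12. The median rested on few libraries, at −0.4 without unstimulated empty vector replicate 5, −0.33 without all libraries of replicate 5 and −0.08 without the 3 libraries of over 40% rRNA. The single genes moved with it. Without unstimulated empty vector replicate 5, H4c4 and H4c14 were both at −0.81, H4c2 at −0.71 and H3c15 at −0.33. Without the 3 libraries these 4 genes had −0.34, −0.42, −0.32 and −0.04.

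Since libraries of 1 replicate number deviated together, the same contrast was fitted with the number as a block. It then had a median of −0.73 and called 1 member, H2bc7, where 0.266% of all genes were called, and 37 members had an unadjusted p under 0.05, as had 11.5% of all genes. Without unstimulated empty vector replicate 5 this median was −0.42, without all libraries of replicate 5 it was −0.3, and without the 3 libraries of over 40% rRNA it was −0.08. H2bc7 (chr13:23573736-23574196, minus strand) encodes a core H2B, ends shortly after its hairpin and has a unique share of only 34.2%. Its levels in empty vector cells were 3.19, 1.51, 11.2 and 4.26 CPM unstimulated and 6.7, 1.88, 7.51 and 3.28 CPM stimulated, in replicates 3 to 6. In sgRNA cells they were 1.96, 0.76, 2.02 and 2.13 CPM and 1.69, 0.453, 1.12 and 2.97 CPM. The sgRNA library was lower in 8 of 8 pairs of the same treatment and number, although the groups overlapped. H2bc7 fell by 1.49 ± 0.28 on the log2 scale with the block (adjusted p = 0.0206) and had −1.56 ± 0.44 without it (adjusted p = 0.9997). Its adjusted p with the block lay between 0.00591 and 0.0829 when single libraries were left out. The call was lost without unstimulated sgRNA replicate 3 (0.056), 5 (0.0829) or 6 (0.0542), without stimulated sgRNA replicate 3 (0.051), 4 (0.0597) or 5 (0.0523), and without stimulated empty vector replicate 4 (0.0501).

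Of the 59 tested members H2bc7, H4c2 and H4c14 had less CPM in the sgRNA library of all 8 pairs, 3 of 59 against 2.07% of all genes. H2ac21, not tested with 27 counts over all libraries, also had the lower value in 8 of 8. Its sgRNA libraries had 0 to 3 counts and its empty vector libraries 1 to 5, so a lower level was not shown in each pair. The rRNA share differed between the same pairs in the same direction. With both the replicate number and the rRNA share in the model, 0 members were called (2 at an unadjusted p under 0.05, as 4.26% of all genes), against 0.106% of all genes, the median was 0.2 and 45 of 59 estimates were above 0. Leaving out single libraries gave medians of 0.07 to 0.34, the lowest without unstimulated empty vector replicate 5, where 25 of 60 members were below 0. H2bc7 then had −0.45, while H4c4 had 0.3, H4c14 0.11 and H3c15 0.42. By type the medians became 0.09 for H1, 0.03 for H2A, 0.28 for H2B, 0.2 for H3 and 0.19 for H4. The share of rRNA and the plasmid moved together, and the part of each in the lower histone levels was not tested beyond this fit. Few of the cell type markers were called for the plasmid in the blocked fit. Of 3 tested preadipocyte markers of 6 listed, 1 was called, Ly6a, which fell by 0.74 on the log2 scale in sgRNA cells (adjusted p = 0.004907), and of 8 brown adipocyte markers 1 was called, the lipid droplet gene Cidea, which rose by 1.05 (adjusted p = 0.03478). The 1 macrophage, 1 endothelial and 1 muscle marker tested were not called. Without the block 0 of the preadipocyte and brown adipocyte markers were called in edgeR, with 0 and 1 at an unadjusted p under 0.05, and with the block and the rRNA share 0 were called, with 1 and 0. The summed preadipocyte markers ranged from 13 to 72.6 and from 19.5 to 94.3 CPM in unstimulated and stimulated empty vector cells and from 7.56 to 41.5 and 15.1 to 68 CPM in the sgRNA groups, so the groups overlapped. The 8 brown adipocyte markers summed to 14200 to 23500 and 10400 to 18500 CPM in the empty vector groups and 17300 to 22200 and 10900 to 20600 CPM in the sgRNA groups. The part of these markers in the histone levels was not tested.

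**Figure D4:**
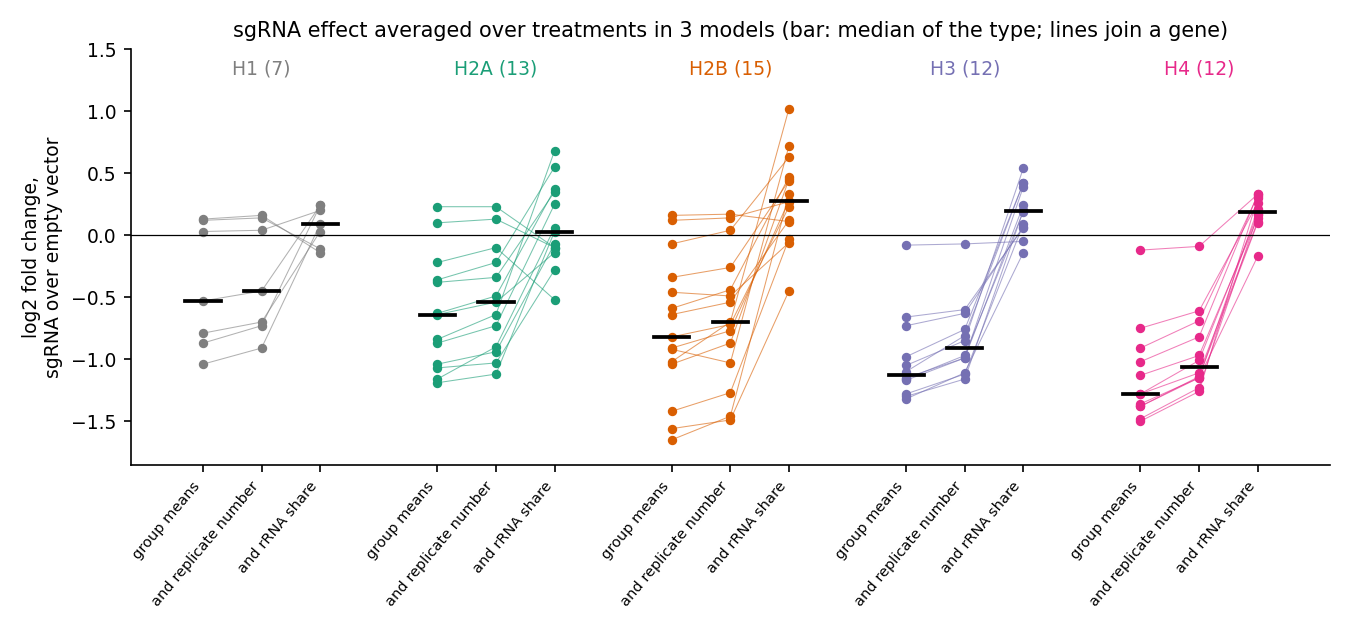
Log2 fold change of sgRNA over empty vector cells, averaged over treatments (vertical axis), of the 59 tested histone genes by type in 3 models (horizontal axis), with the group means alone, with the replicate number added and with the rRNA share added to both. Lines join a gene and bars are medians of the type, and the median over all members moves from −0.91 to −0.73 and to 0.2.

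Within unstimulated cells the sgRNA effect had a median of −0.99, with 0 members called and 0% of all genes (13 members and 1.48% of all genes at an unadjusted p under 0.05 in edgeR, 0 members called by DESeq2). The block left it at 0, against 0.0304% of genes, with 20 members and 5.73% of all genes at an unadjusted p under 0.05. This contrast also rested on unstimulated empty vector replicate 5. Without that library the empty vector means were 70.1 CPM for H3 and 57.2 for H4, beside 62.7 and 54.6 in unstimulated sgRNA cells. For H2B and H2A they were then 90.3 and 75, below the 98.3 and 86 of sgRNA cells. In stimulated cells the median was −0.8 and again 0 members were called by edgeR and by DESeq2, with 0% of all genes called and 4 members and 1.49% of all genes at an unadjusted p under 0.05. With the block 0 were called there, against 0.122% of genes, and 25 members and 7.29% of all genes had an unadjusted p under 0.05.

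Isoproterenol is known to act on brown adipocytes through β-adrenergic receptors, and 3 of 8 brown adipocyte markers were called without the block. Ucp1 rose by 4.03 on the log2 scale (adjusted p = 7.357e-06), whereas Adipoq, an adipokine gene, fell by 1.06 and Lipe, which encodes a lipase, by 0.69 (adjusted p = 0.00222 and 0.01395). The macrophage marker Cd68, the 1 of 4 on its list that was tested, rose by 0.91 (adjusted p = 0.005182), with Ptprc and Adgre1 at means of 0.0385 and 0.00346 CPM. With the block edgeR called 5 of the 8 brown adipocyte markers. Plin1, which fell by 0.57, and Cidea, which rose by 1.2, were added (adjusted p = 0.0002172 and 0.0007463). The preadipocyte marker Ly6a rose by 1.09 with the block (adjusted p = 4.923e-06) and by 0.99 without it (adjusted p = 0.3398). On the same list Pdgfra and Pdgfrb had 0.3 and 0.04 with the block and were not called (adjusted p = 0.2077 and 0.9135). Dlk1, Cd34 and Dpp4 were not tested. The part of these genes in the histone levels was not tested. For isoproterenol, averaged over plasmids, the median log2 fold change of the members was 0 and edgeR called 0 of 59 members, while 2.65% of all genes were called. Unadjusted, 2 members and 17.7% of all genes had a p under 0.05, and DESeq2 called 0 members. With the block 0 members were called against 5.7% of all genes, with 6 members and 33.5% of all genes at an unadjusted p under 0.05. The median was 0.09 with the block, and 36 of 59 estimates were above 0. With the block and the rRNA share it was −0.26, and 49 of 59 were below 0. In that fit 16 members and 32.2% of all genes had an unadjusted p under 0.05. H2bc4 (chr13:23684199-23692908, plus strand), the most abundant H2B gene by CPM, had no exact hairpin in its annotated transcripts. It measured 43.7, 27.1, 58.6 and 53.7 CPM in unstimulated and 41.5, 22.8, 30.7 and 42.6 CPM in stimulated empty vector cells, in replicates 3 to 6. In sgRNA cells it measured 47.5, 35.7, 47.7 and 67.3 CPM unstimulated and 31.8, 30.8, 36.2 and 50.6 CPM stimulated. The stimulated library was lower in 8 of 8 pairs, for 1 of 59 members against 7.67% of all genes. Its log2 fold change was −0.39 ± 0.09 with the block (adjusted p = 0.006546), under the bound of 0.5 set for a call, and −0.41 without it (adjusted p = 0.2531).

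In empty vector cells isoproterenol gave 0 calls among members without the block (0.829% of all genes, with 3 members and 10.1% of all genes at an unadjusted p under 0.05, 0 members called by DESeq2) and 1 with it, against 4.47% of all genes. That gene was H3c14 (chr3:96246685-96248509, plus strand), an H3 gene with no stretch of sequence of its own, so that its reads match other genes as well. It had 6.98, 5.91, 10.3 and 8.93 CPM unstimulated and 7.09, 3.27, 3.94 and 6.06 CPM stimulated. The stimulated library was lower in 3 of the 4 numbers and level in replicate 3. The log2 fold change with the block was −0.66 ± 0.2 (adjusted p = 0.0463), and with the rRNA share added it was −0.67 ± 0.22 and no longer called (adjusted p = 0.07552). In sgRNA cells H3c14 had 7.14, 3.65, 6.96 and 6.92 CPM unstimulated and 4.62, 5.15, 6.41 and 7.13 CPM stimulated, where 2 of the 4 numbers were lower. The stimulated and unstimulated values overlapped with both plasmids. The difference between both effects was 0.61 with the block (adjusted p = 1 in edgeR).

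Isoproterenol in sgRNA cells gave 0 calls among members with 0.7% of all genes called, 0 members and 8.46% of all genes at an unadjusted p under 0.05 and 0 members called by DESeq2. With the block it gave 0 calls against 3.9% of genes, with 2 members and 21.7% of all genes at an unadjusted p under 0.05. With the block and the rRNA share, 3 members were called for the averaged effect, beside 5.55% of all genes. H2ac19 fell by 0.71, H2ac11 by 0.83 and H2bc13 by 0.83 on the log2 scale (adjusted p = 0.001322, 0.00873 and 0.04413). In empty vector cells the same model called 2 members beside 4.31% of genes, H2ac19 at −0.93 and H2ac11 at −1.06 (adjusted p = 0.004963 and 0.02704). The median of the members there was −0.42, with 55 of 59 estimates below 0, against 0.09 with the block alone. H2ac19 and H2ac11 encode core H2A, and H2ac19 has no stretch of sequence of its own. The interaction of plasmid and isoproterenol called 0 members and 0% of all genes in both models, with 0 members (0.395% of all genes) at an unadjusted p under 0.05 without the block, 2 (1.51%) with it, and 0 called by DESeq2.

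**Figure D5:**
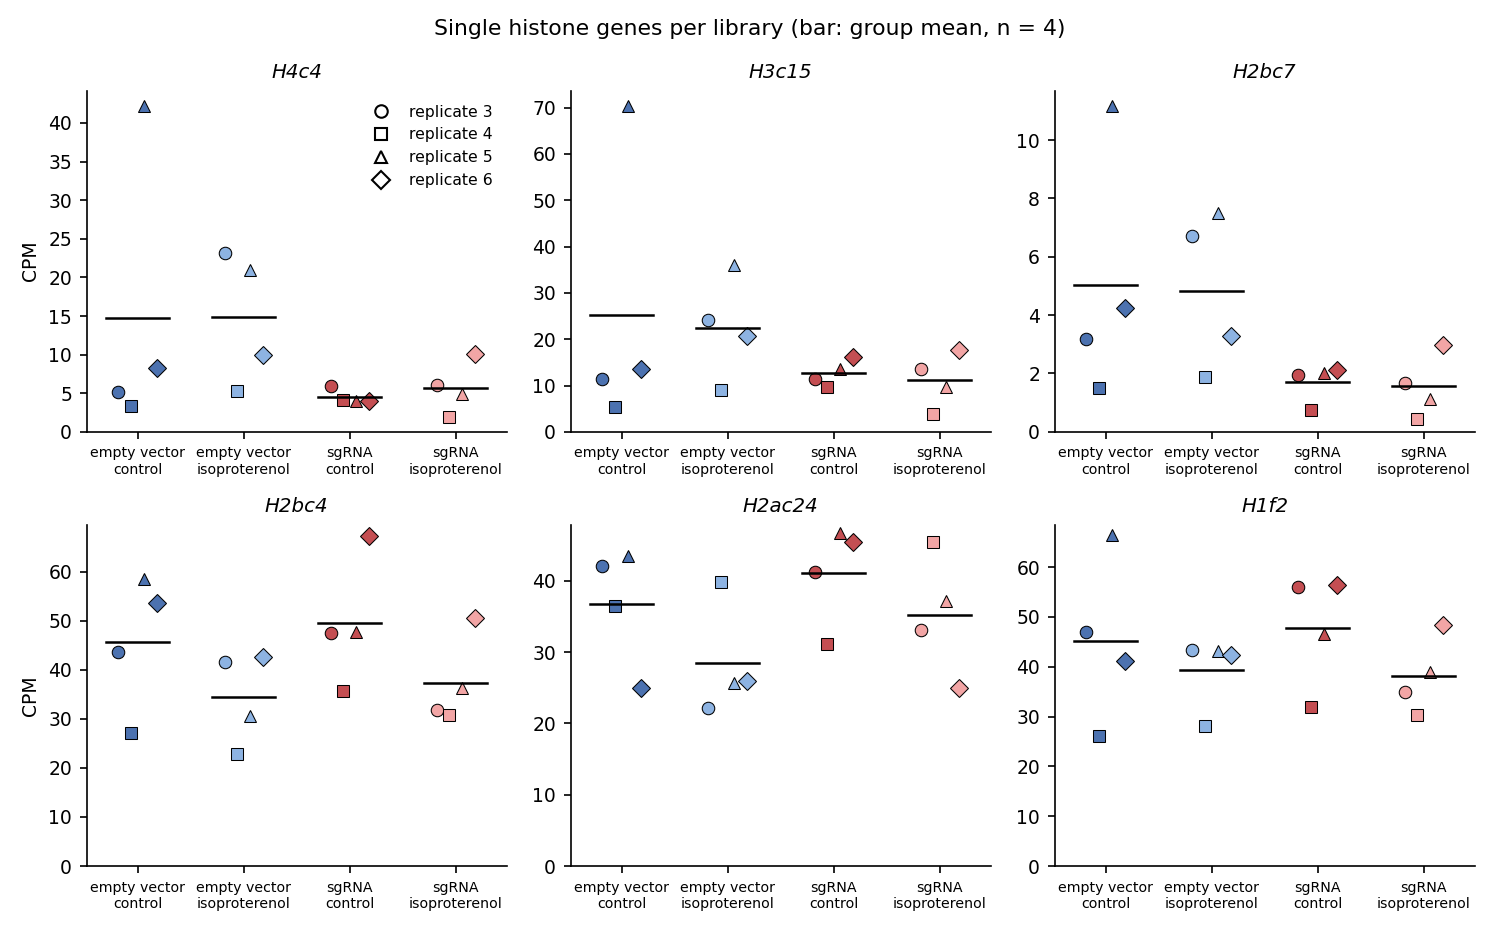
CPM (vertical axis, linear from 0) of H4c4, H3c15, H2bc7, H2bc4, H2ac24 and H1f2 in the 4 groups (horizontal axis), with 1 symbol for each replicate number and the mean of the 4 libraries as a bar. H2bc7 is lower in the sgRNA library in 8 of 8 pairs of the same treatment and number, and H2bc4 is lower in the stimulated library in 8 of 8 pairs of the same plasmid and number.

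The promoters were compared because members of a type may share upstream sequence. RefSeq windows from 250 bases before to 50 bases after the start (GRCm38.p6) matched 64 members with 65 windows. On either strand, the octamer ATTTGCAT, which the factor Oct-1 binds in H2B promoters, was found in 7 of 16 H2B (43.8%) and 6 of 17 H2A windows (35.3%), in 0 of 10 H1, 0 of 10 H3 and 0 of 12 H4 windows and in 1.74% of all 32851 windows. Of the 13 windows with it, 6 overlap the window of a member on the other strand. CCAAT, the box bound by NF-Y, was in 81.5% of the members' windows against 37.4% of all, and TATAAA in 53.8% against 13.6%. CCAAT was in 100% of the H2A, H2B and H3 windows, 70% of H1 and 25% of H4 windows. Below are the 150 bases before the start of H2bc7 (chr13:23574208-23574357, minus strand), the member called in the sgRNA comparison, and of H4c4 (chr13:23581418-23581567, plus strand), with CCAAT or its complement ATTGG and TATAAA in capitals.
H2bc7: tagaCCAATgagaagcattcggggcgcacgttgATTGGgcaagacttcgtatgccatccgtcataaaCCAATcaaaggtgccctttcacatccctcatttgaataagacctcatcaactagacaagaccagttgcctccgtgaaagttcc
H4c4: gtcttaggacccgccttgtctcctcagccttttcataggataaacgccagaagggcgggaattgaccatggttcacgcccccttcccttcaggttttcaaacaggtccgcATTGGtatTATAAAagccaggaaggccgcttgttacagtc
The printed stretch of H2bc7 holds CCAAT letters at 3 places, and that of H4c4 holds 1 such match with TATAAA after it. A match of letters describes the sequence and shows no binding.

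Genes that act with histones were examined for the same slope on the rRNA share. Over all genes edgeR called 0.586% for it, and 9.36% had an unadjusted p under 0.05. Of 37 genes of DNA replication and the cell cycle 0 were called by edgeR and 0 had an unadjusted p under 0.05 (median slope −0.02), with Pcna, the sliding clamp of DNA polymerase, at 481 CPM, and Rrm1 and Top2a at 245 and 209. Of 24 genes of histone transcription and 3′ processing 0 were called and 1 had an unadjusted p under 0.05, among them Slbp, which encodes the hairpin-binding protein, at 122 CPM, and the cap-binding Ncbp1 and the histone locus body gene Casp8ap2, at 105 and 65.7 CPM. Of 22 tested histone chaperones 0 were called and 4 had an unadjusted p under 0.05, the most abundant being Npm1, Rbbp4 and Rbbp7 at 396, 206 and 162 CPM. Among polyadenylated histone variants, which include H3f3b, H3f3a and H2az1 at 545, 440 and 400 CPM, 1 of 9 tested was called, H2aj with a slope of −0.83 (adjusted p = 0.01535). Of 22 listed noncoding RNAs that lack a poly(A) tail 5 were tested, and 4 of these were called with a positive slope, namely Rmrp and Rpph1, the RNA parts of the RNases MRP and P, at 1.67 and 1.08, and the small nucleolar RNAs Snora73a and Snora73b at 2.28 and 1.93, while the telomerase RNA Terc had −1.11 and was not called. Summed over the 11 found in the table they ranged from 164 to 1770 CPM in unstimulated and 208 to 1110 in stimulated empty vector cells, and from 166 to 229 and 110 to 370 CPM in the sgRNA groups. The 37 genes of DNA replication and the cell cycle summed to between 3150 and 3670 CPM in all 16 libraries. Their part, and that of RNA without a tail, in the histone levels was not tested.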

How the data were processed

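Poly(A) RNA of 16 samples was made into NEBNext Ultra II libraries and sequenced in paired ends. Per the submitters' processing notes and the methods, the authors used bcl2fastq, cutadapt and Salmon with GENCODE transcripts of GRCm38 and deposited estimated counts per gene as whole numbers. Versions and strand use are not given in the sources used here, and salmon divides reads between similar transcripts. Groups were taken from the labels.

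edgeR 4.0.16 in R 4.3.3 was run on the counts of all 16 libraries (filterByExpr, minimum count 10 and total 15, 13150 genes, TMM, glmQLFit with 4 group means, two-sided glmQLFTest, Benjamini-Hochberg over all genes). A gene was called for a contrast at an adjusted p under 0.05 with a log2 fold change beyond 0.5 either way, and for replicate number or slope at an adjusted p under 0.05. CPM values use TMM library sizes, except the sums with the rRNA gene removed, which are scaled to the remaining counts. Between samples that share neither number nor group, correlations had a median of −0.215 and ran from −0.512 to 0.516. They were taken on deviations from group means, which by itself lowers correlations between different numbers. Same-numbered samples deviated together, with correlations of 0.224 to 0.613 in the 4 numbers, although both ranges overlapped. Blocked values are therefore given where they change a call of a histone gene, or of a cell type marker in an averaged contrast. DESeq2 1.42.0, RLE scaling, no count filter, removal of the rRNA gene and leaving out libraries were alternatives. The code was tested on simulated data.

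Named genes were drawn mainly from members called in a test, the 4 highest by CPM of each type and members lower in every pair. Not every member called for slope or replicate number is named, and some members are named for their sequence or counts. Of related lists, mainly the 3 highest and called genes were named. The members and lists were chosen with earlier results of these data known. Coordinates and transcripts came from GENCODE M21, a release other than the authors' M22.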

Additional observations from a re-analysis of the deposited data

Results flagged for a closer look

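In each group of 4 libraries, the summed levels of the histone types and the levels of single members were examined for a library that stood apart from the others of its group, which was judged by its gap to the nearest library against Dixon's 95% critical value of 0.829. Of 84 groups examined over 21 quantities, 9 values stood apart. Chance gives about 1 in 20 such groups if values are normal and independent. The quantities overlap, since the H4 sum includes H4c4, and members were chosen with earlier results known. The count therefore cannot be set against that share.

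Unstimulated empty vector replicate 5, with 47.3% rRNA, was high in 4 of the 9 values. It had 348 CPM of H4 (nearest library 76.1), 70.4 CPM of H3c15 (nearest 13.6), 42.2 CPM of H4c4 (nearest 8.2) and 14.4 CPM of the H2B gene H2bc13 (nearest 2.8).

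Unstimulated sgRNA replicate 4 was low in 3 of them, with an H3 sum of 45.8 CPM (nearest 67), 3.65 CPM of H3c14 (nearest 6.92) and 0.76 CPM of H2bc7 (nearest 1.96). In the same group replicate 3 was high for H4c4, at 5.95 CPM (nearest 4.18). Stimulated empty vector replicate 4 had 28.1 CPM of the linker histone gene H1f2 (nearest 42.4). The causes were not tested.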

How the results depend on the processing

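Apart from settings that leave out libraries one at a time, 57 values that answer a comparison kept their call or stayed within 1.5 times of the count and 6 moved, and of the values of single genes and levels 110 kept their side, 12 moved, 8 changed sign, 3 passed the threshold and 7 lost it. The replicate block raised the members called to 1 for the averaged sgRNA effect (H2bc7) and to 1 for isoproterenol in empty vector cells. The block with the rRNA share gave 2 there and 3 for averaged isoproterenol. The block without the 3 libraries of over 40% rRNA called 1 member and 4.15% of all genes for isoproterenol in sgRNA cells, and the slope count without them was 0. The paired fit changed no other call among the histone genes.

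The averaged sgRNA effect changed sign with the block and the rRNA share for H4c14 (0.11), H4c4 (0.3), H3c15 (0.42) and H1f0 (−0.11), and without the 3 libraries for H1f0 (−0.08). Slopes changed sign for H2bc21 without the block (0.02) and, without the 3 libraries, for H1f2 (−0.28) and H2bc4 (−0.27). With libraries or replicate numbers left out, the slope of H1f2 ranged from −0.16 (without replicate 5) to 0.28 and was −0.04 without unstimulated empty vector replicate 5, that of H2bc4 from −0.04 (without the same library) to 0.19, and that of H2bc21 from −0.14 to 0.02 (without unstimulated sgRNA replicate 5). All 30 slope calls were lost without the 3 libraries, among them H4c4 (1.34), H3c15 (0.94), H3c11 (0.86), H4c14 (1.13), H2bc7 (0.95), H2bc8 (0.76) and H2bc13 (0.24).

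Leaving out replicates or libraries gave 1 to 37 slope calls, 5 to 51 calls for replicate number and 0 to 0 in the contrasts without a block. In blocked fits without 1 replicate number, isoproterenol called 3 members without replicate 4, 3 without 5 and 1 without 6 (averaged), 1 without 3 and 5 without 5 (empty vector) and 1 without 4 (sgRNA cells), and the sgRNA effect 1 without 6. Of all genes these fits called 5.67%, 5.16% and 5.26%, 3.13% and 4.1%, 3.16%, and 0.123%. The causes were not tested.

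Scaling to the counts outside the rRNA gene, without TMM factors, raised the sums in every group. In unstimulated and stimulated empty vector and unstimulated and stimulated sgRNA cells, in that order, they became 374, 368, 373 and 364 CPM for H1, 140, 114, 121 and 106 for H2A, 167, 150, 139 and 119 for H2B, 178, 173, 88.6 and 95.6 for H3, and 168, 155, 77.2 and 81.9 for H4. Without the block 45 slopes were called, with RLE scaling 30 and without the count filter 38. Depth limits the 16 members that were not tested. Values at under 10 counts in a library, as for H2bc7 in stimulated sgRNA replicate 4 (8 counts), carry large counting error.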
